A study of Mus musculus with 6 samples.

Results

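Hepatocytes take drugs up from the blood and pass them on to bile or back to blood through membrane carriers, and 9 of these carriers are described here in the livers of mice given sulfasalazine. The uptake carriers are the organic anion transporting polypeptides Slco1a1, Slco1a4, Slco1b2 and Slco2b1 and the organic anion transporter Slc22a7. The efflux pumps are the ATP-binding cassette proteins Abcg2, Abcb1a, Abcc2 and Abcc3. For each gene the locus with that gene name and an Ensembl transcript was taken, and with several such loci the one of highest mean level, which gave 9 loci among the 42612 of the whole table. None of the 9 loci held transcripts of another gene.

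The study compared liver RNA between groups of male mice of the outbred stock ICR, aged 8 weeks per the labels. Treated mice received 1000 mg/kg sulfasalazine by oral gavage for 4 weeks, and vehicle mice received the same volume of 0.1% DMSO. Each group has 3 libraries, which the labels name as separate samples without saying whether a library is 1 mouse or a pool. The SDs and p-values therefore measure the spread between these samples, which may be technical. For short, the libraries are called vehicle mice 1 to 3 and treated mice 1 to 3 (V1 to V3 and S1 to S3 in the plots), and nothing in the labels says that a shared number marks a pair.

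Uptake carriers sit in the sinusoidal membrane that faces the blood, where Slco proteins and Slc22a7 exchange or carry organic anions without splitting ATP. ATP-binding cassette pumps use ATP to push drugs and their conjugates out, Abcg2, Abcb1a and Abcc2 across the canalicular membrane into bile and Abcc3 across the sinusoidal membrane back to blood. Sulfasalazine itself is a known substrate of Abcg2 and, in humans, of the SLCO2B1 protein. Several of these genes are known targets of the nuclear receptors CAR and PXR, and Slco1a1 is known to be higher in the livers of male than of female mice.

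The coding sequences show how the 2 classes differ. All 4 pumps hold the Walker A motif, the loop that grips ATP, which was searched in the translated reference transcripts of GENCODE M21 as glycine, 2 free residues, glycine, 1 free residue, glycine, lysine and then serine or threonine. Abcb1a, Abcc2 and Abcc3 each hold 2 copies, Abcg2 holds 1, and the 5 uptake carriers hold 0. The copies shown are those of Abcc3, the pump with the largest difference between the groups in FPKM, with those of Abcc2 and Abcg2 beside them; the copies of Abcb1a are not shown. They lie in exons 16 and 28 of Abcc3 (chr11:94363757-94363780 and chr11:94351922-94351945, minus strand), exons 16 and 29 of Abcc2 (chr19:43814731-43814754 and chr19:43832057-43832080, plus strand) and exon 3 of Abcg2 (chr6:58663648-58663671, plus strand), all on GRCm38. Capitals mark the codons of the fixed residues and lower case the free ones, read 5′ to 3′ on the coding strand.
Abcc3 copy 1: GGAcctgtgGGCtgtGGGAAGTCT
Abcc3 copy 2: GGCcgcactGGGgctGGCAAATCT
Abcc2 copy 1: GGCactgtaGGCtctGGGAAGTCC
Abcc2 copy 2: GGCaggaccGGAgctGGAAAATCA
Abcg2 copy 1: GGAcccacaGGCggaGGCAAGTCT

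The Slco carriers share a different mark, the signature of the organic anion transporting polypeptides at the edge of the sixth membrane span. Its letters are aspartate, a free residue, arginine, tryptophan, isoleucine or valine, glycine, alanine, a pair of tryptophans, a free residue, glycine, phenylalanine or leucine, and leucine. It is shown because it makes plain how alike the Slco1a genes are, Slco1a1 and Slco1a4 among them, which bears on their levels. The windows lie at chr6:141925689-141925727 in exon 7 of Slco1a1, chr6:141825139-141825177 in exon 7 of Slco1a4, chr6:141663601-141663639 in exon 9 of Slco1b2 and chr7:99682824-99682862 in exon 7 of Slco2b1, on GRCm38, with Slco1b2 on the plus strand and the others on the minus strand. Capitals mark codons that meet the 11 constrained positions.
Slco1a1: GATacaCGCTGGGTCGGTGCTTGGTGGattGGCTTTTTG
Slco1a4: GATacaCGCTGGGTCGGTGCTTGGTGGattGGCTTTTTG
Slco1b2: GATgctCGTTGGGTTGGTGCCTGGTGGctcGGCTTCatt
Slco2b1: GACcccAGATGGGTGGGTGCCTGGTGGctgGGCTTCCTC
The first 2 windows are the same letter for letter, and Slco1a5 and Slco1a6, which are not shown, hold that same window. The last codon of the Slco1b2 window departs from the signature. Over their coding sequences Slco1a1 and Slco1a4 were 86.7% identical, with a longest shared run of 132 bases, so how reads were split between them is uncertain. Slco1a1 and Slco1b2 were 61.3% identical with a longest shared run of 14 bases, and Abcc2 and Abcc3 were 61.7% identical with a longest shared run of 17 bases.

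Levels are FPKM, mapped fragments scaled to transcript length and library total, so they can be set between genes. FPKM keeps no totals, so the depth of a library is unknown; FPKM summed to 224434 to 260047 per library. Changes were tested with limma on log2(FPKM + 1) over the 11969 loci that reached 1 FPKM in 3 or more libraries, and 8 of the 9 carriers were among them; Abcb1a was below that level. At an adjusted p of 0.05 over all tested loci, 0 of the 8 were called. In the whole fit 0.0167% of loci were called higher (2 loci) and 0% lower (0 loci). At an unadjusted p under 0.05 the carriers called were Slc22a7 and Abcc3, 2 of 8, against 7.51% of all tested loci. The treated mice lay wholly above the vehicle mice for 1 of 8 tested carriers, Abcc3, against 6.71% of tested loci, and wholly below for 1 of 8, Slc22a7, against 6.46%. Counts this small on 8 genes do not set the carriers apart from the rest of the table.

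**Figure D1:**
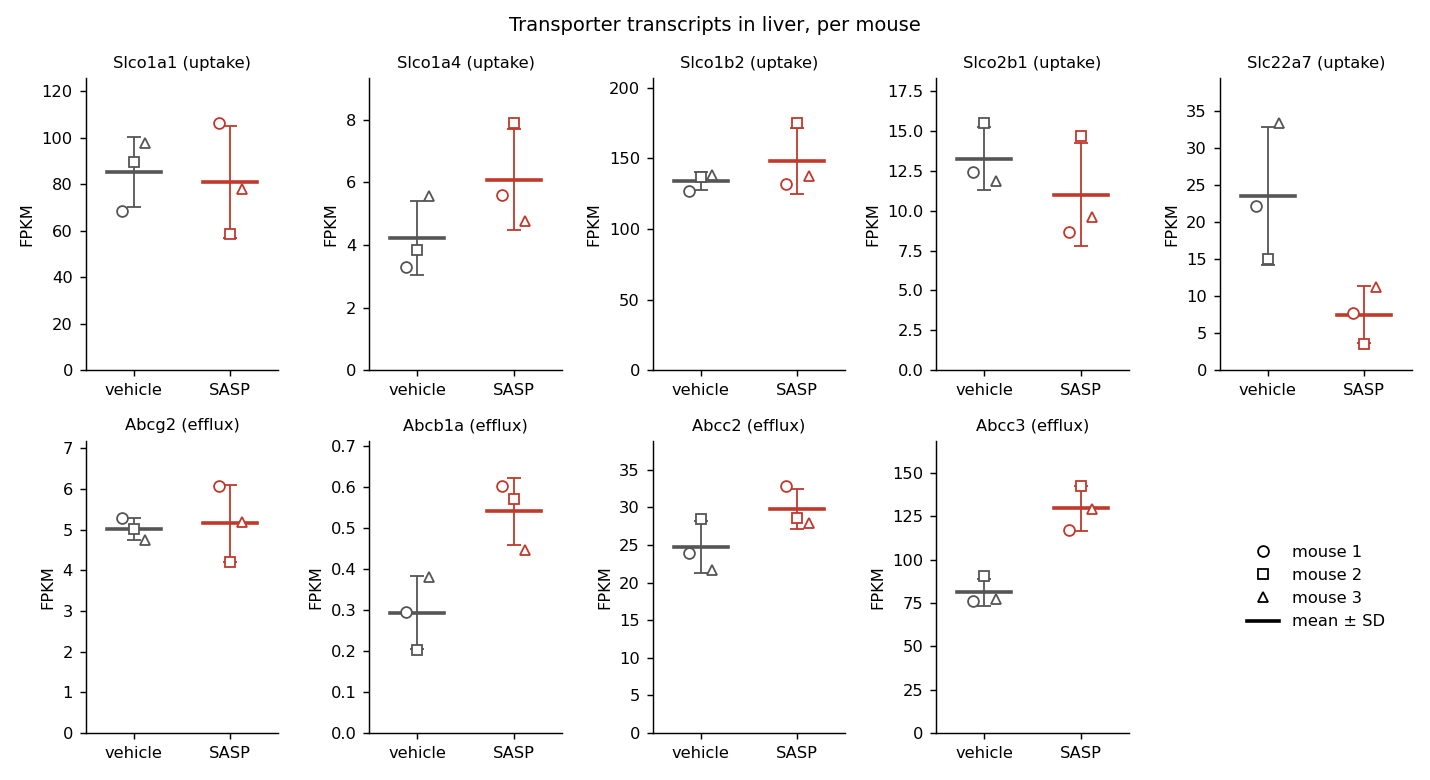
FPKM (y axis, linear, from 0, its own scale in each panel) of the 9 carriers in each mouse by group (x axis; SASP is 1000 mg/kg sulfasalazine); symbols are mice, thick lines are means and bars are SD (n = 3). Slc22a7 was lower and Abcc3 and Abcb1a were higher in all 3 treated mice than in any vehicle mouse, while the groups overlapped for the other 6 carriers.

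Among the uptake carriers the clearest difference was in Slc22a7, known as OAT2, a carrier of small organic anions in the sinusoidal membrane. Slc22a7 stood at 22.1, 15.0 and 33.4 FPKM in the vehicle mice and at 7.68, 3.57 and 11.3 FPKM in the treated mice. Every treated mouse lay below every vehicle mouse, and both groups were widely spread, with vehicle mouse 3 highest and treated mouse 2 lowest. The means were 23.5 ± 9.29 and 7.51 ± 3.85 FPKM (SD, n = 3 each), a ratio of treated to vehicle of 0.320. Its log2 fold change was -1.57 (SE 0.44), with a 95% interval from -2.63 to -0.50 (limma, unadjusted p = 0.0111, adjusted p = 0.485), so the difference did not pass the threshold. Leaving out 1 mouse at a time moved the log2 fold change between -1.89 and -1.18, the latter without treated mouse 2, and the adjusted p over all alternatives tried was 0.384 to 0.763. In bulk liver RNA, fewer cells of a type and less RNA per cell cannot be told apart. The summed FPKM of 7 hepatocyte markers overlapped between the groups, at 18893 to 23454 in vehicle mice and 19415 to 21718 in treated mice, but most of that sum was Alb. Among the 7 single markers, 2 were higher without overlap in the treated mice, Fabp1 and Hnf4a, against 6.71% of tested loci. Serpina1a, 1 of the 7, was lower without overlap, against 6.46% of tested loci, and 0 were called. The sum of 8 stellate cell and fibroblast markers was 67.7 to 108 in vehicle mice, highest in vehicle mouse 3, and 50.1 to 67.2 in treated mice. Dcn was its largest part in each mouse. Of these markers 8 of 8 were negative, against 6029 of 11969 tested loci. Dcn and Reln, 2 of the 8, were lower without overlap, against 6.46% of tested loci, and 0 were called. The sum of 8 Kupffer cell and macrophage markers was 241 in vehicle mouse 3, against 55.3 and 79.5 in the other vehicle mice and 98.7 to 104 in treated mice. The part of these markers in the Slc22a7 difference was not tested. The gene is the single-transcript locus at chr17:46432183-46438457, minus strand.

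Slco1b2, the mouse counterpart of the human OATP1B carriers that clear bilirubin, statins and other anions, was the most abundant of the 9. Slco1b2 stood at 127, 137 and 138 FPKM in the vehicle mice and at 132, 175 and 137 FPKM in the treated mice. The groups overlapped, with treated mouse 2 apart at the top. The log2 fold change was 0.13 (SE 0.16), with a 95% interval from -0.25 to 0.52 (limma, adjusted p = 0.883). The gene lies at chr6:141629518-141686646, plus strand.

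Slco1a1, a broad carrier of bile acids, steroid conjugates and drugs, came second in vehicle liver. Its values were 68.3, 89.6 and 97.5 FPKM in the vehicle mice and 106, 58.6 and 77.8 FPKM in the treated mice. Treated mice held both the highest and the lowest value, so the spread among treated mice enclosed the whole vehicle group. The estimate was a log2 fold change of -0.10 (SE 0.26), with a 95% interval from -0.73 to 0.53 (limma, adjusted p = 0.950). Without vehicle mouse 3 it was 0.0057, and without treated mouse 2 it was 0.11, so its sign rests on single mice. Slco1a1 lies at chr6:141907282-141946962, minus strand.

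Slco1a4, known in mice as a digoxin carrier that PXR activators raise, ran much lower than its near copy. Slco1a4 stood at 3.29, 3.85 and 5.55 FPKM in the vehicle mice and at 5.60, 7.90 and 4.77 FPKM in the treated mice. Mice of both groups lay between 4.77 and 5.55 FPKM, and treated mouse 2 was highest. The change was 0.44 on the log2 scale with an SE of 0.23 and a 95% interval from -0.12 to 0.99 (limma, adjusted p = 0.743). The ratio of Slco1a1 to Slco1a4 within a mouse was 20.7, 23.3 and 17.6 in the vehicle mice and 19.0, 7.41 and 16.3 in the treated mice. Treated mouse 2, which had the least Slco1a1 and the most Slco1a4, thus stood apart, while the other treated mice lay within or just under the vehicle range. The remaining genes of the cluster on chromosome 6 were barely detected, with no value above 0.188 FPKM for Slco1a6, 0.0270 for Slco1a5 or 0.0284 for Slco1c1. The split of reads is uncertain for Slco1a5 and Slco1a6 too. Slco1a4 lies at chr6:141805440-141856199, minus strand.

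Treated mouse 2 also stood apart in genes of sexual dimorphism. The summed FPKM of 10 male-biased liver genes was 2749 to 4546 in vehicle mice and 1572 to 3420 in treated mice, lowest in treated mouse 2. Most of that sum was Mup7 and Mup20, and Cyp4a12a and Elovl3 were not lowest in treated mouse 2. For 13 female-biased liver genes the sum was 15.8 to 32.5 in vehicle mice, 28.8 and 74.3 in treated mice 1 and 3, and 272 in treated mouse 2. Cyp3a41a and Cyp2b9 were its largest parts in treated mouse 2, while Cyp2a4, Cyp17a1 and Fmo2 were not highest in that mouse. The summed FPKM of red blood cell genes was also highest in that mouse, at 849 against 254 to 429 in the vehicle mice. Most of that sum was globin, and Alas2 of the same list went the other way. Alas2 stood at 44.1, 58.4 and 8.30 FPKM in the vehicle mice and at 39.8, 12.6 and 45.9 FPKM in the treated mice. The part of these differences in the Slco1a1, Slco1a4 and Slc22a7 values was not tested.

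Slco2b1, the mouse form of the carrier that brings sulfasalazine into cells in humans, stood at 12.4, 15.5 and 11.9 FPKM in the vehicle mice and at 8.69, 14.7 and 9.63 FPKM in the treated mice. Treated mice 1 and 3 lay below all vehicle mice and treated mouse 2 lay among them. The log2 fold change was -0.27 (SE 0.22), with a 95% interval from -0.80 to 0.26 (limma, adjusted p = 0.840). Slco2b1 lies at chr7:99657804-99711340, minus strand.

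Of the efflux pumps, Abcc3, the sinusoidal pump that returns glucuronides and other conjugates to blood, differed most by FPKM. Abcc3 stood at 76.2, 90.3 and 77.4 FPKM in the vehicle mice and at 117, 143 and 129 FPKM in the treated mice. The groups were tight and did not overlap, with a gap between 90.3 and 117 FPKM. The means were 81.3 ± 7.82 and 129.7 ± 12.9 FPKM (SD, n = 3 each), a ratio of 1.60. On the log2 scale the change was 0.67 (SE 0.15), with a 95% interval from 0.31 to 1.02 (limma, unadjusted p = 0.00374, adjusted p = 0.370), so the difference did not pass over all loci. Leaving out 1 mouse at a time kept the log2 fold change between 0.60 and 0.74, and the adjusted p over all alternatives was 0.259 to 0.723. Bile duct cells are known to make Abcc3 too. The summed FPKM of 7 cholangiocyte markers was 3.80 to 6.08 in vehicle mice and 3.05 to 4.92 in treated mice, and most of that sum was Spp1 and Sox9. Krt19 was higher without overlap, at 0.0807 to 0.172 FPKM in vehicle mice and 0.210 to 0.430 FPKM in treated mice. Krt7, at 0.0897 to 0.108 against 0.0242 to 0.0562 FPKM, and Epcam, at 0.130 to 0.206 against 0 to 0.106 FPKM, were lower without overlap. Cftr was listed at 0 in 4 of the 6 libraries. Krt19, Krt7, Epcam and Cftr were all near 0 and below the level for testing, so the shares of tested loci do not cover them. The part of bile duct cells in the Abcc3 difference was not tested. Abcc3 lies at chr11:94343295-94392997, minus strand.

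Abcc2, the canalicular pump for bilirubin glucuronides and glutathione conjugates, is the near relative of Abcc3 on the bile side. Abcc2 stood at 24.0, 28.4 and 21.6 FPKM in the vehicle mice and at 32.9, 28.6 and 27.9 FPKM in the treated mice. Treated mouse 3 fell inside the vehicle range and the other treated mice were above it. The log2 fold change was 0.27 (SE 0.15), with a 95% interval from -0.10 to 0.63 (limma, adjusted p = 0.768). Abcc2 lies at chr19:43782192-43840740, plus strand.

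Abcg2, the canalicular pump for which sulfasalazine is a substrate, had means of 5.02 ± 0.270 and 5.16 ± 0.941 FPKM in the vehicle and treated mice (SD, n = 3 each). Abcg2 stood at 5.29, 5.01 and 4.75 FPKM in the vehicle mice and at 6.08, 4.20 and 5.18 FPKM in the treated mice. The treated mice spread on both sides of the vehicle mice. The log2 fold change was 0.02 (SE 0.14), and its 95% interval from -0.32 to 0.36 spans a fall and a rise of similar size (limma, adjusted p = 0.982). Abcg2 lies at chr6:58584523-58695676, plus strand.

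Abcb1a, which makes P-glycoprotein, the canalicular pump for bulky neutral and cationic drugs, was the least abundant. Abcb1a stood at 0.295, 0.202 and 0.380 FPKM in the vehicle mice and at 0.602, 0.570 and 0.447 FPKM in the treated mice. All treated mice lay above all vehicle mice, at levels under 1 FPKM. The means were 0.292 ± 0.0890 and 0.540 ± 0.0822 FPKM (SD, n = 3 each), a ratio of 1.85, and on the log2(FPKM + 1) scale, which shrinks changes of such low genes, the difference was 0.25. It was below the level for testing; with the filter lowered or removed its adjusted p was 0.830 and 0.723 (limma). Abcb1a shares 88.1% of its coding sequence with Abcb1b, with a longest shared run of 338 bases, so reads could have been split between them. Abcb1a lies at chr5:8660077-8748575, plus strand.

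**Figure D2:**
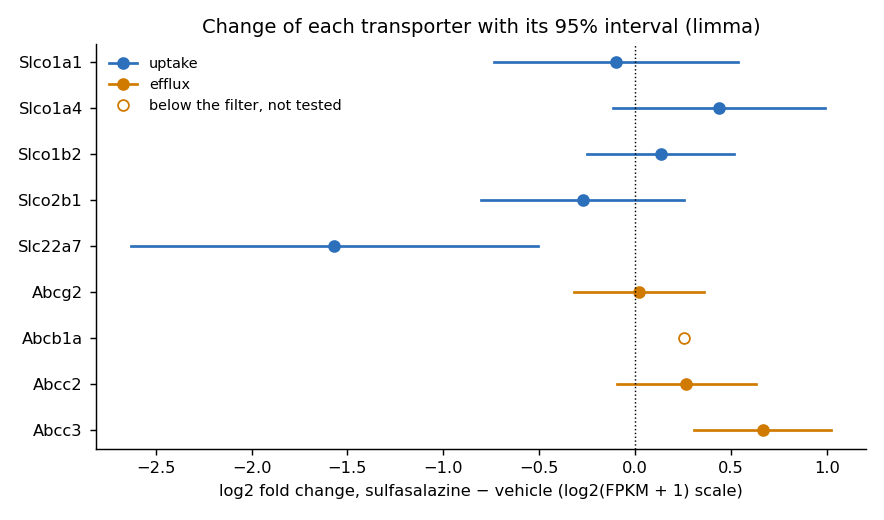
Log2 fold change of each carrier, sulfasalazine minus vehicle (x axis, log2(FPKM + 1) scale), with its 95% interval from limma (lines); blue marks uptake, orange marks efflux, and the open point is Abcb1a, which was not tested. The intervals of Slc22a7 (-2.63 to -0.50) and Abcc3 (0.31 to 1.02) lie on 1 side of 0 before adjustment over all loci, and the other 6 intervals cross 0.

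Set against each other, the 5 uptake carriers had 2 positive and 3 negative log2 fold changes with a median of -0.10, and the 4 pumps had 4 positive ones with a median of 0.26. Of these pumps Abcb1a was below the level for testing. Abcg2, at 0.02, turned negative without vehicle mouse 3 or treated mouse 1. The 3 tested pumps were positive with a median of 0.27. The median of all tested loci was -0.00206, with 5940 positive and 6029 negative. The summed FPKM of the uptake carriers was 233, 261 and 287 in the vehicle mice and 260.3, 259.9 and 241 in the treated mice. That of the pumps was 106, 124 and 104 in the vehicle mice and 157, 176 and 163 in the treated mice. The uptake sums thus overlapped and the efflux sums did not, and Abcc3 alone made up 72.0% to 74.3% of the efflux sum in vehicle mice and 74.7% to 81.1% in treated mice. Slco1b2 made up 48.3% to 54.5% of the uptake sum in vehicle mice and 50.7% to 67.4% in treated mice.

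**Figure D3:**
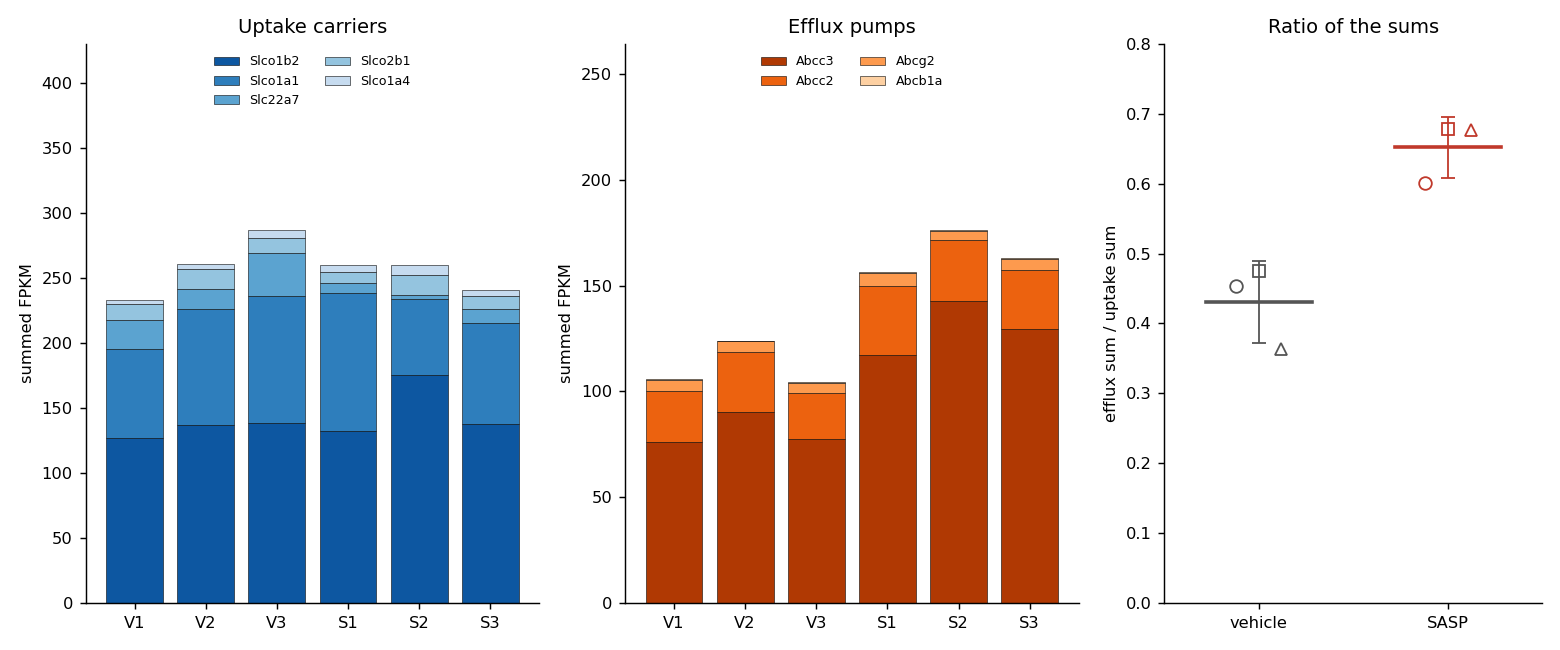
Summed FPKM of the 5 uptake carriers (left) and of the 4 efflux pumps (middle) in each mouse, stacked by gene, and the ratio of the efflux to the uptake sum (right; symbols are mice, thick lines means, bars SD, n = 3). The ratio was 0.363 to 0.475 in vehicle mice and 0.601 to 0.678 in treated mice, and Abcc3 and Slco1b2 fill most of their columns.

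The ratio of the efflux to the uptake sum was 0.454, 0.475 and 0.363 in the vehicle mice and 0.601, 0.678 and 0.677 in the treated mice, with means of 0.431 ± 0.0593 and 0.652 ± 0.0437 (SD, n = 3 each). The groups did not overlap, but Abcc3 made up most of the efflux sum and itself lay wholly higher in treated mice. The ratio of the sums therefore largely follows Abcc3, and it was not computed without that gene. With each gene weighted alike, the mean log2(FPKM + 1) of the pumps minus that of the uptake carriers was -1.21, -1.22 and -1.60 in the vehicle mice and -0.72, -0.76 and -0.83 in the treated mice, a difference between groups of 0.58. That difference rested largely on Slc22a7 and Abcc3: it was 0.25 without Slc22a7, where the groups overlapped, 0.45 without Abcc3, where they did not, and 0.13 without both, where they overlapped. The ratio of Abcc3 to Slc22a7 was 3.44, 6.04 and 2.32 in the vehicle mice and 15.2, 39.9 and 11.5 in the treated mice, and treated mouse 2 was highest. Since Abcc3 lay wholly higher and Slc22a7 wholly lower in treated mice, this ratio had to separate the groups. These sums and ratios describe genes read together and carry no test.

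The order of the levels also differed around these genes. In vehicle liver Slco1b2 was highest, then Slco1a1 and Abcc3, whose ranges overlapped, then Abcc2, Slc22a7 and Slco2b1, each overlapping the next, then Abcg2 and Slco1a4, which overlapped, and last Abcb1a. In treated liver Slco1b2 and Abcc3 overlapped at the top, Slco1a1 and then Abcc2 followed with separate ranges, and Slco2b1, Slc22a7, Slco1a4 and Abcg2 formed an overlapping run above Abcb1a. Slc22a7 overlapped Slco2b1 in both groups, Abcc2 only in vehicle mice, and Slco1a4 and Abcg2 only in treated mice. Abcc3 overlapped Slco1a1 only in vehicle mice and Slco1b2 only in treated mice.

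Other carriers listed for the liver gave no call, and these lists were not limited to genes of hepatocytes. Of 19 other uptake carriers listed, 13 were tested and 0 were called, with 5 positive and 8 negative and a median log2 fold change of -0.05. The most abundant of them were Slc10a1, the bile acid carrier NTCP, and Slc22a18. Slc10a1 stood at 59.6, 71.8 and 61.1 FPKM in the vehicle mice and at 58.8, 67.8 and 61.5 FPKM in the treated mice, and the groups overlapped. Among the 13 tested ones only Slc22a18, 1 of 13, was higher without overlap, against 6.71% of tested loci. Slc22a18 stood at 40.5, 45.5 and 39.0 FPKM in the vehicle mice and 47.9, 57.5 and 48.0 FPKM in the treated mice (limma, adjusted p = 0.728).

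Of 21 other genes listed with the efflux carriers, 16 were tested and 0 were called. Of those tested, 7 were positive and 9 negative, with a median log2 fold change of -0.0088. The groups did not overlap for 2 of the 16, both higher, against 6.71% of tested loci. So small a count does not set the list apart from the rest of the table. Abcc4, which like Abcc3 exports conjugates across the sinusoidal membrane, stood at 0.572, 0.448 and 0.687 FPKM in the vehicle mice and at 3.88, 2.91 and 2.23 FPKM in the treated mice. It passed the filter only through the treated mice, and its log2 fold change of 1.33 (SE 0.18) did not pass the threshold (limma, unadjusted p = 0.000311, adjusted p = 0.147). Abcb11, the canalicular bile salt pump, stood at 101, 80.5 and 93.9 FPKM in the vehicle mice and at 128, 112 and 123 FPKM in the treated mice, a log2 fold change of 0.40 (limma, adjusted p = 0.634). Abca1, which loads cholesterol onto apolipoproteins, overlapped between the groups, at 30.9, 36.0 and 43.6 against 23.9, 36.4 and 23.2 FPKM.

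**Figure D4:**
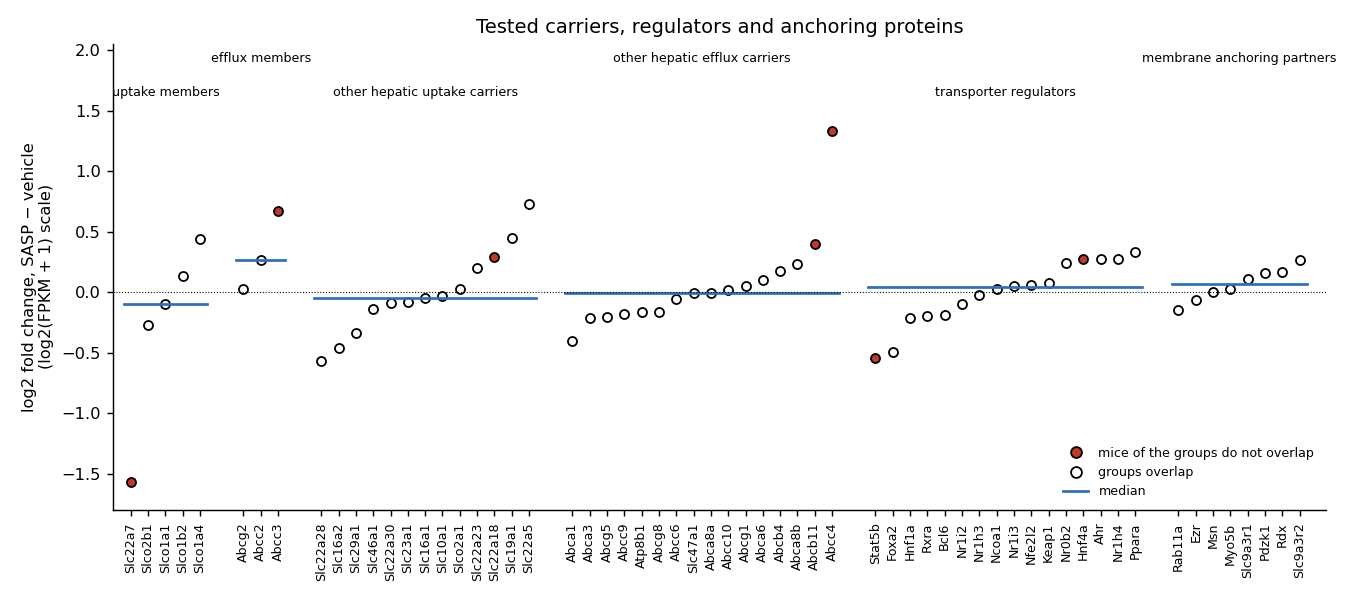
Log2 fold change, sulfasalazine minus vehicle (y axis, log2(FPKM + 1) scale), of each tested carrier, regulator and anchoring protein, sorted within its list (x axis); filled points are genes whose groups do not overlap and blue lines are list medians. Slc22a7 (-1.57) is the lowest point and Abcc4 (1.33) the highest, and the medians of the other lists lie between -0.05 and 0.07.

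The 17 regulators listed are transcription factors, nuclear receptors and proteins that act with or on them, such as Ncoa1 and Keap1. Of these, 16 were tested and 0 were called, with 9 positive and 7 negative and a median of 0.04. Nr1i3, which encodes CAR, stood at 19.5, 18.1 and 12.2 FPKM in the vehicle mice and at 13.1, 18.3 and 20.1 FPKM in the treated mice, and Nr1i2, which encodes PXR, at 11.1, 10.8 and 11.7 against 7.63, 14.1 and 10.4 FPKM. Both overlapped between the groups. Hnf4a, a master factor of hepatocytes, did not, at 75.3, 83.7 and 68.3 FPKM in the vehicle mice and 93.9, 93.6 and 86.6 FPKM in the treated mice (limma, adjusted p = 0.730). Stat5b, which carries the growth hormone signal, lay lower without overlap, at 8.58, 8.14 and 9.02 against 4.41, 5.21 and 7.42 FPKM (limma, adjusted p = 0.579). Thus 1 of 16 tested regulators was higher and 1 of 16 lower without overlap, against 6.71% and 6.46% of tested loci.

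Proteins that hold carriers in the membrane gave no call either, with 8 of 9 tested, 6 positive and 2 negative, and a median of 0.07. The most abundant were Slc9a3r1, a scaffold that binds carrier tails, and Rdx, which encodes radixin and is needed in mice to keep Abcc2 in the canalicular membrane. Slc9a3r1 stood at 14.3, 24.5 and 22.7 against 20.4, 22.1 and 22.5 FPKM, and Rdx at 10.2, 23.7 and 13.0 against 14.6, 20.9 and 15.1 FPKM, with overlap in both.

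Drug-metabolizing enzymes known as targets of CAR and PXR are given for comparison. Of 10 listed and tested, 10 were positive with a median log2 fold change of 1.61, the groups did not overlap for 6, all higher, against 6.71% of tested loci, and 1 was called: Cyp2c55, a cytochrome P450, rose from 0.891, 0.543 and 0.880 FPKM to 26.4, 16.8 and 20.9 FPKM (limma, log2 fold change 3.64, adjusted p = 0.012). Cyp2c55 passed the filter only through the treated mice, since each vehicle mouse was under 1 FPKM. The list was chosen with its direction in these samples known, so its counts are a description and no yardstick for the carriers.

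The loci whose pattern over the 6 mice was most like Slc22a7, by the root mean square difference of centred log2(FPKM + 1) among 3422 annotated loci of at least 5 FPKM, were G6pc, Egfr and Sgk1, at 0.340, 0.384 and 0.442. G6pc, the last enzyme of glucose release, stood at 154, 69.5 and 164 FPKM in the vehicle mice and at 54.7, 35.1 and 50.3 FPKM in the treated mice. For Abcc3 they were Prdx1, Gm14584 and Tfpi2, at 0.0658, 0.0855 and 0.102. Prdx1, a peroxiredoxin that removes peroxides, stood at 74.6, 98.2 and 83.6 FPKM in the vehicle mice and at 114, 140.3 and 131 FPKM in the treated mice. Treated mouse 2 was lowest in Slc22a7 and G6pc and highest in Abcc3 and Prdx1. These loci were picked for their likeness over the same 6 mice, so a shared extreme mouse largely follows from the choice.

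**Figure D5:**
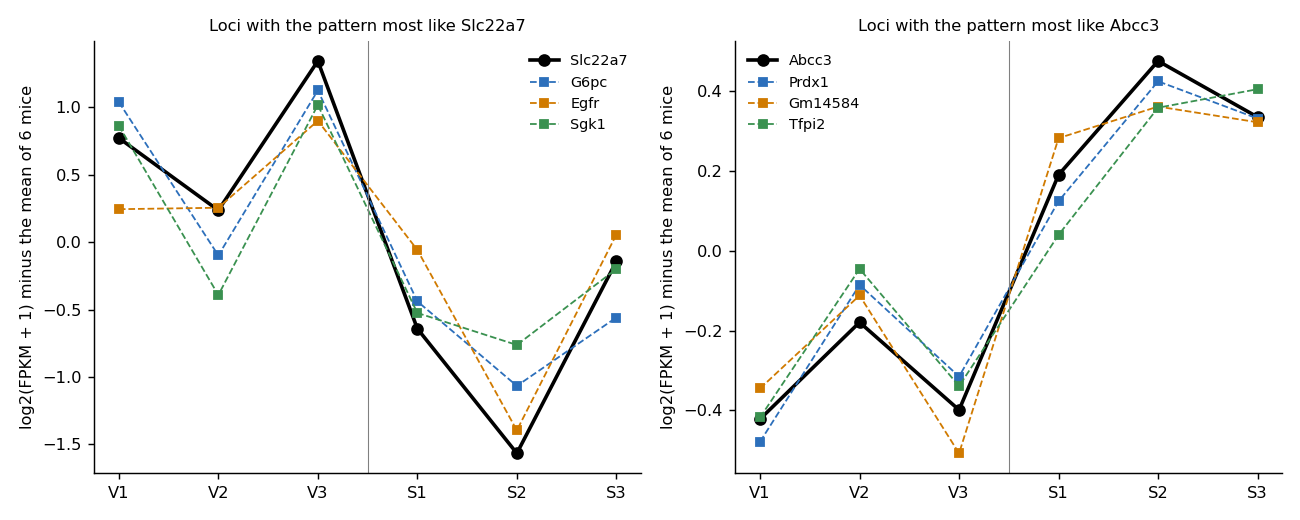
Log2(FPKM + 1) minus the mean over the 6 mice (y axis) in each mouse (x axis) for Slc22a7 (left, black) and Abcc3 (right, black) with the 3 loci of most similar pattern; the lines only join the points of a gene. Treated mouse 2 (S2) is the lowest point of Slc22a7, G6pc, Egfr and Sgk1 and the highest of Abcc3 and Prdx1, which largely follows from picking loci by likeness over these mice.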

How the data were processed

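Liver RNA libraries, 3 from vehicle mice and 3 from mice given 1000 mg/kg sulfasalazine, were sequenced after depletion of ribosomal RNA, per the labels' protocols. The authors deposited FPKM per locus, per the file headers. Of the tools used, the submitters' processing notes list, without versions, StringTie, Bowtie2, FastQC and cutadapt, and they give GRCm38.p5 as the build. Annotation release and strand setting are not given in the sources used here. Of 42612 loci, 24822 carry an Ensembl transcript, and 24750 of these matched GENCODE M21 on GRCm38, which gave coordinates and coding sequences.

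From the deposited FPKM, log2(FPKM + 1) was tested by a two-sided limma fit (version 3.58.1, R 4.3.3; mean-variance trend on) over the 11969 loci that reached 1 FPKM in 3 or more libraries. Benjamini-Hochberg adjustment over all of them was applied at 0.05. The replicate number was not a block: the correlations of same-numbered mice after removing group means were 0.00967, -0.0668 and -0.0222, and the labels do not pair the mice. Depth is unknown, so no counting interval can be given. Exact 0 values can be failed estimates and are named as listed at 0. Pseudocount, filter, scaling, variance model, loci and mice were varied as alternatives. The fit was tested on simulated data with known changes.

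The 9 members and all gene lists were chosen with earlier results of these data known. Besides the members, the text names genes of each pathway list that passed the threshold, tested ones whose groups did not overlap by smallest p, and the 2 most abundant. For the CAR and PXR enzymes only the gene that passed is named. For marker lists, sums are given. Of the other uptake carriers, 1 is not reported here and was left out of its list, though it stayed in the fit. Hbb-bs and Hbb-bt share 1 locus, as do Hba-a1 and Hba-a2. Sequences were read with Biopython 1.88 and pandas 2.3.3, and plots drawn with matplotlib 3.10.9 in Python 3.11.15.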

Additional observations from a re-analysis of the deposited data

Results flagged for a closer look

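A second locus carrying the name Slco1b2, without an Ensembl transcript, was among the loci tested but is no member of the comparisons above. It was listed at 0 in the 3 vehicle mice and at 1.00, 3.97 and 2.88 FPKM in the 3 treated mice and drew attention as a signal seen in treated mice alone. It passed the filter only through the treated mice, with treated mouse 1 barely at 1 FPKM. Its mean in treated mice was 2.62 FPKM, 1.77% of the mean of the annotated Slco1b2 locus in the same mice. The values of the annotated locus overlapped between the groups. With FPKM summed per gene name the log2 fold change of Slco1b2 was 0.16. What the second locus represents was not tested.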

How the results depend on the processing

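Under the 24 settings tried, 0 of the carriers were called in each. Slc22a7 kept a negative and Abcc3 a positive log2 fold change in all of them. The count of loci called in the whole table moved more than the carriers did. Against 2 higher and 0 lower, it was 1 higher with a pseudocount of 0.1 or 0.01 or a minimum of 0.1 FPKM, and 0 higher with no filter. It was 6 higher and 1 lower with a minimum of 5 FPKM, and 23 higher and 22 lower with no variance trend. Among loci with an Ensembl transcript it was 9 higher and 3 lower, among loci with no library at 0 it was 8 higher and 3 lower, and with FPKM summed per gene name 7 higher. A fit with a replicate block called 0 loci higher and 0 lower; since the numbers share only a label, this is no paired result. Leaving out 1 mouse at a time gave 1 to 9 higher and 0 to 6 lower. It moved the median log2 fold change of the uptake carriers between -0.25 and 0.0076, and that of the pumps between 0.21 and 0.30. The difference of efflux minus uptake lay between 0.45 and 0.64, the change of Slco1a1 between -0.32 and 0.11, and that of Abcg2 between -0.084 and 0.14. Slco1a1 turned positive without vehicle mouse 3 or treated mouse 2, and Abcg2 negative without vehicle mouse 3 or treated mouse 1. The median of the pumps was 0.47 with a pseudocount of 0.1 and 0.48 with 0.01, where the efflux minus uptake difference was 0.76; smaller pseudocounts weight Abcb1a more. In settings added after the data were seen, that difference was 0.25 without Slc22a7 and 0.13 without both Slc22a7 and Abcc3. Quantile normalization gave no value for the pumps together, since Abcb1a was filtered out. The cause of the other shifts was not tested. Depth is unknown, and 3 mice per group limit what can pass.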

Other observations

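A second locus named Slco1a4, also without an Ensembl transcript, was listed at 0 in vehicle mice 1 and 2 and treated mice 2 and 3, and stood at 0.831 FPKM in vehicle mouse 3 and 1.45 FPKM in treated mouse 1. Slc22a27, an organic anion carrier gene of the other uptake carriers that was below the level for testing, stood at 0.0663, 0.0827 and 0.283 FPKM in the vehicle mice and at 0.376, 3.44 and 0.499 FPKM in the treated mice, without overlap and with treated mouse 2 far above the rest. Slc22a27 was chosen after its values were seen.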
